A study of Saccharomyces cerevisiae with 3 samples.

Results

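Eisosomes are furrows in the yeast plasma membrane, and 8 genes that encode their scaffold or the membrane proteins resident in them were followed here across 3 two-colour DNA microarrays of Saccharomyces cerevisiae. The genes were PUN1, SUR7, FMP45, PIL1, LSP1, NCE102, SEG1 and EIS1, chosen by name among 6174 genes of the array through their locus tags. The yeast was BY4741, a laboratory strain, in a derivative labelled WSC1extMID2cyt. That label names WSC1 and MID2, genes of cell wall stress sensors, and both RNAs on every array came from this derivative, so no array compared it with BY4741 itself. A culture in rich medium at 24 °C was divided. One portion was left untreated, the other was given caspofungin at 15 ng/ml, and both were collected after 2 hours. Caspofungin is an antifungal drug that blocks synthesis of the wall polymer beta-glucan. The arrays are numbered 1, 2 and 4 in the labels, and the treated RNA carried the dye Cy5 on arrays 2 and 4 but Cy3 on array 1.

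An eisosome is built from the paralogous BAR-domain proteins Pil1 and Lsp1, which coat the cytoplasmic face of the membrane and bend it into a furrow. Seg1 and Eis1 help to place and hold this coat, and Nce102 is a tetraspan protein that responds to sphingolipids and promotes the furrow's assembly. The membrane above the coat, called the MCC, gathers the tetraspan proteins of the SUR7 family (among them Sur7, Fmp45 and Pun1) together with several nutrient permeases. The compartment is known as a membrane reserve and as a site that passes membrane stress on to the kinase complex TORC2.

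Each value was a ratio of the 2 channels of an array, deposited on a log scale. Raising 2 to the deposited value gave a number of exactly 4 decimals for 100% of values on each array, to within 0.001 of the last decimal, while base e, base 10 or the inverse ratio did so for at most 0.520%. The values are therefore log2 ratios. Which way the ratio runs is not given in the sources used here, so "positive" and "negative" below mean the sign as deposited, and turning it would exchange every side named. The columns were taken as running one way because array 1, with the dyes exchanged, had a correlation of 0.50 with array 2 across 585 genes. Its correlation with array 4 was 0.05, which settles little. Dye effects on single genes were not tested, so one direction for all columns stays an assumption. Arrays 2 and 4, which carried the treated RNA in the same dye, had a correlation of 0.53. The median of the shared genes was -0.14 on arrays 1 and 2 and 0.09 on array 4, so a ratio of 0 was not the middle of any array. In bulk RNA, fewer cells of a kind and less RNA per cell cannot be told apart.

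Of the 8 genes, 7 had at least 1 value. A value was present for 3 genes on all 3 arrays (PUN1, LSP1 and NCE102), for SUR7 on arrays 1 and 2, for SEG1 and EIS1 on array 1 alone, and for PIL1 on array 4 alone. FMP45 had none, as did 3473 of the 6174 genes. The arrays differed in how much they measured: 6, 4 and 4 of the 8 genes had a value on arrays 1, 2 and 4, against 40.6%, 31.0% and 11.9% of table rows.

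PUN1 stood well to the positive side of the other members. It encodes a plasma membrane protein of the SUR7 family that is known to be induced under nitrogen limitation and wall stress. Arrays 1, 2 and 4 gave log2 ratios of 1.29, 1.40 and 1.88, which are ratios of 2.45, 2.64 and 3.67. All 3 arrays were past 2-fold and lay within 0.58 of each other on the log2 scale. The mean log2 ratio was 1.52 ± 0.31 (SD, n = 3 arrays), or 2.88-fold. On every array PUN1 was near the top of the ranking, with a lower ratio at 97.8% of 2520 genes on array 1, 98.2% of 1924 on array 2 and 98.4% of 741 on array 4. After each array was centred on its median over the 585 shared genes (called centred below) the spread narrowed, to 1.59 ± 0.18 (SD, n = 3 arrays). It was the only one of the 7 measured genes that reached 2-fold on every array with a value. Over all 2701 genes with a value, 2.63% did so on the positive side and 3.33% on the negative side, and over the 585 genes measured on 3 arrays 1.2% did so on the positive side. PUN1 was chosen with its values known, so this count is a description.

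**Figure D1:**
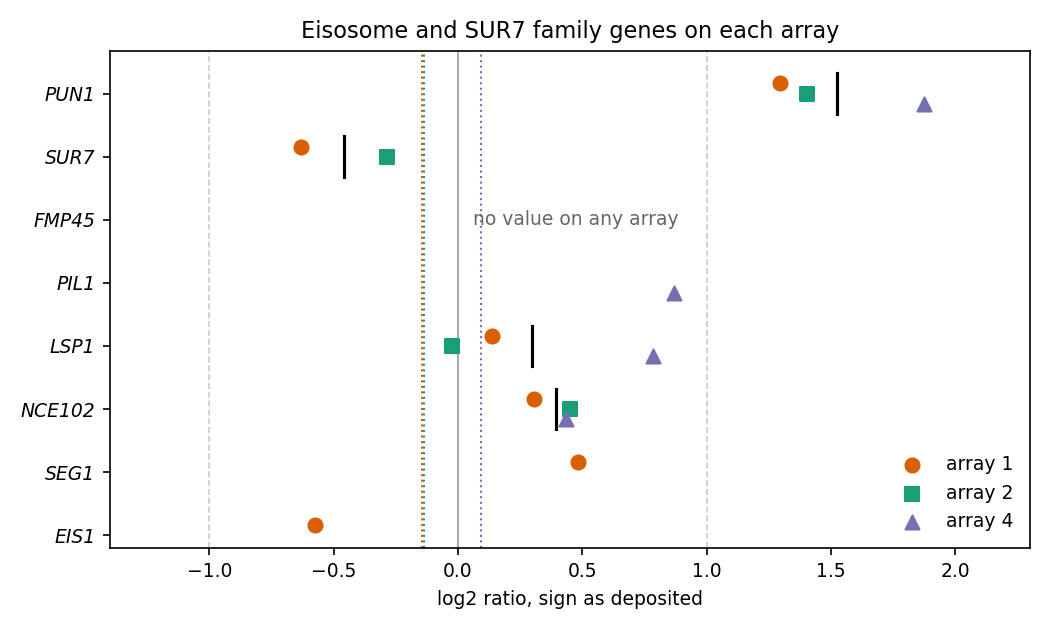
Log2 ratio (horizontal axis, sign as deposited) of each of the 8 genes on array 1 (circles), array 2 (squares) and array 4 (triangles), with black bars at the mean where 2 or 3 arrays had a value. Dotted lines mark the median of the 585 shared genes on each array (coloured as its points), and dashed lines mark 2-fold on either side. PUN1 lies past 2-fold on all 3 arrays, SUR7 and EIS1 lie below 0, and FMP45 has no value.

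This difference was not past the test for all genes. The series describes 2 cultures, each hybridised in both dye orientations, so array 1 shares a culture with array 2 or with array 4. With limma over both possible pairings, keeping the larger p, the adjusted p of PUN1 was 0.224 (Benjamini-Hochberg over 585 genes), the third smallest unadjusted p of all. The estimate was 1.61 (95% interval 0.90 to 2.33) with arrays 1 and 2 averaged, and 1.49 (1.09 to 1.90) with arrays 1 and 4 averaged, before any adjustment for the number of genes. None of the 585 genes passed (0%), while 67 had an unadjusted p under 0.05 by limma. The test without moderation also called 0, with 72 genes at an unadjusted p under 0.05. When every array counted as a separate replicate and genes on 2 arrays were included, limma called 2.53% of 1899 genes, and PUN1 was the one called among the 4 members tested (adjusted p = 0.0094). That p is too small, because by the series text 2 of the 3 arrays come from one culture. Whether PUN1 was called turned on single arrays while its mean stayed between 1.35 and 1.64. Over the same 585 genes, with the remaining arrays as separate replicates, the limma adjusted p was 0.028 without array 1, 0.759 without array 2 and 0.0061 without array 4. Over all genes that the remaining arrays share it was 0.040 (590 genes), 0.763 (616 genes) and 0.00091 (1863 genes). The fits over 585 genes were added after seeing the data. Without array 1, both remaining arrays carried the treated RNA in Cy5, so treatment and dye cannot be told apart there. Arrays 1 and 2, left when array 4 is dropped, may be one culture.

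SUR7, the founding member of the family and a constant resident of the compartment, lay on the other side. Its log2 ratio was -0.63 on array 1 and -0.29 on array 2, with a mean of -0.46 ± 0.24 (SD, n = 2 arrays). It had a lower ratio than most genes on array 1, where 11.1% of genes were below it, but stood near the middle on array 2, where 45.7% were. Centred on the shared genes the array 2 value was -0.15, and against the median of all genes on that array it was -0.062. Both values being negative is common in these data: 45.9% of genes on at least 2 arrays were negative throughout, against 18.5% positive throughout. With arrays as separate replicates limma gave an adjusted p of 0.277 for SUR7, an estimate with a 95% interval of -1.03 to 0.11. The 2 measured family members were thus far apart on the arrays that held both. PUN1 exceeded SUR7 by 1.93 on array 1 and by 1.69 on array 2 on the log2 scale. This is 1.81 ± 0.17 (SD, n = 2 arrays). Its exact sign-flip permutation p of 0.50 (two-sided) is the smallest that 2 arrays allow, so the difference is a description. FMP45, the third member, whose product is known for roles in sphingolipid content and in sporulation, gave no value to set beside them.

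The scaffold genes PIL1 and LSP1 could be compared on 1 array. PIL1, which encodes the main coat protein without which eisosomes collapse, had 0.87 on array 4, where 87.9% of genes had a lower ratio. LSP1, its paralogue, had 0.78 on the same array, with 84.8% of genes lower. The 2 paralogues were within 0.087 of each other there. They are close in sequence, and probe sequences were not used here, so signal shared between their spots was not tested. LSP1 was lower on the other arrays, at 0.14 on array 1 and -0.02 on array 2, and its mean was 0.30 ± 0.43 (SD, n = 3 arrays). The SD exceeds the mean. The mean was 0.06 without array 4, 0.38 without array 1 and 0.46 without array 2, so most of it came from array 4. Centring turned the array 2 value to 0.11 and left all 3 arrays positive. By limma over both pairings the adjusted p was 0.661, and the widest 95% interval ran from -0.34 to 1.18, which holds both 0 and a 2-fold difference.

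NCE102 had the most even values of the group. Its log2 ratio was 0.31, 0.45 and 0.43 on arrays 1, 2 and 4. The arrays lay within 0.14 of each other over both dye orientations, if the columns run one way. The mean was 0.40 ± 0.079 (SD, n = 3 arrays), or 1.32-fold. It stood higher in the ranking on arrays 1 and 2, with 85.0% and 88.0% of genes below it, than on array 4, with 70.3%. Being positive on 3 of 3 arrays was true of 18.1% of the 585 shared genes. The limma adjusted p was 0.604 over both pairings. The 95% interval was -0.26 to 1.07 with arrays 1 and 2 averaged and 0.022 to 0.80 with arrays 1 and 4 averaged.

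The organisers SEG1 and EIS1 had a value on array 1 alone, so neither has a replicate. SEG1, needed for coat assembly ahead of Pil1, had 0.48, above 90.4% of genes. EIS1, a coat-associated protein needed for eisosome integrity, had -0.57, above 15.9% of genes. The difference between them was 1.06 on the log2 scale, on 1 array. After centring they were 0.63 and -0.43.

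**Figure D2:**
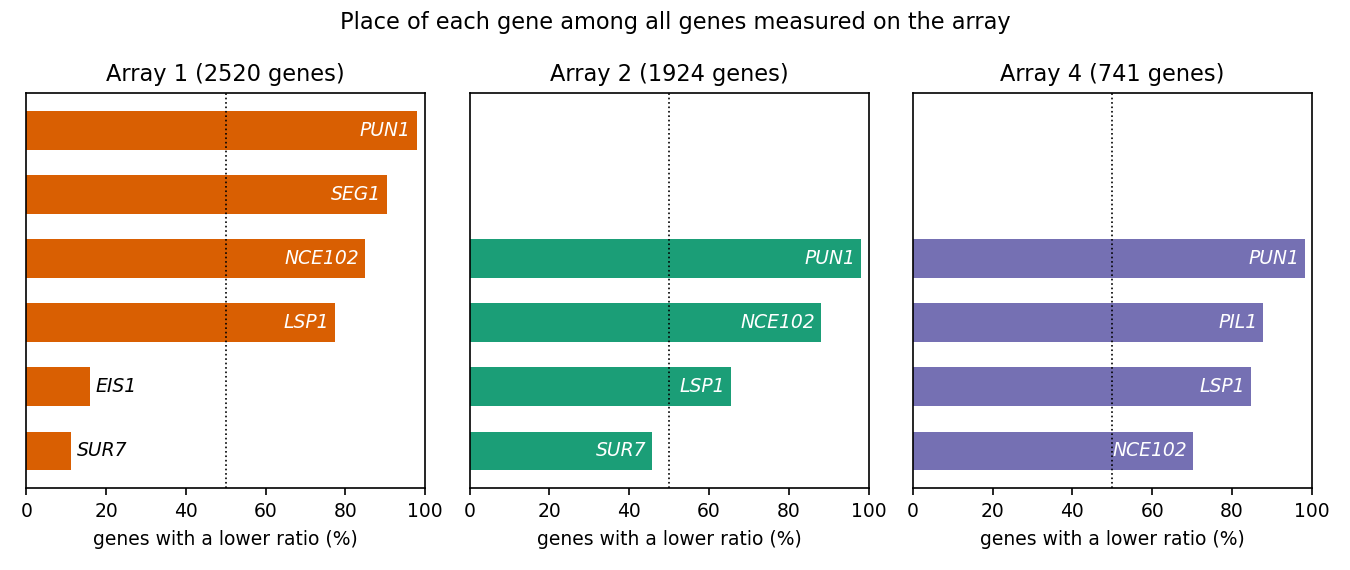
Bars give the percentage of all genes measured on an array that had a lower ratio than the named gene, for arrays 1, 2 and 4 with 2520, 1924 and 741 genes, and the dotted line marks 50%. PUN1 has the longest bar on each array (97.8% to 98.4%), NCE102 and LSP1 lie above the line on all 3, and SUR7 lies below it on both of its arrays.

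PUN1 lay above the other members on each array that measured them. It exceeded LSP1 by 1.16, 1.43 and 1.09 on arrays 1, 2 and 4. Over NCE102 the excess was 0.99, 0.95 and 1.44. Both differences had one sign on 3 of 3 arrays, with means of 1.23 ± 0.18 and 1.13 ± 0.27 (SD, n = 3 arrays). With 2 cultures an exact sign-flip permutation test cannot go below p = 0.50 (two-sided), so these differences are given as a description. NCE102 and LSP1 could not be ordered: NCE102 was the higher by 0.17 and 0.47 on arrays 1 and 2 and the lower on array 4, by -0.35 (mean difference 0.098 ± 0.42, SD, n = 3 arrays). On array 1, which measured 6 members, the order from the highest ratio was PUN1, SEG1, NCE102, LSP1, EIS1 and SUR7. On array 2 it was PUN1, NCE102, LSP1 and SUR7, and on array 4 PUN1, PIL1, LSP1 and NCE102. A ratio compares treated with untreated RNA of one gene and gives no level, so these orders say nothing about which transcript was the more abundant.

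Among the 4 members with 2 or 3 values, 2 were positive throughout, 1 was negative throughout and 1 (LSP1) was mixed, with a median of 0.35. Over all 1899 such genes 18.5% were positive throughout, 45.9% were negative throughout and 35.6% were mixed, with a median of -0.19. The sets differ in their arrays: 3 of the 4 members had all 3 values, against 585 of the 1899 genes. After centring the median was 0.41 for the members and -0.074 for all genes. Values were also thin in wider lists of eisosome genes, which include the 8 members. The SUR7 family list held 8 genes, counting YNL194C and the related genes RIM9, ECM7, TOS7 and DCV1. Only PUN1 and SUR7 had more than 1 value. Of 17 genes for coat proteins, organisers and associated proteins, 11 had a value and 8 had 2 or 3. Of these 8, 4 were positive throughout, 1 was negative throughout and 3 were mixed, with a median of 0.34 (0.40 after centring). LSP1 and NCE102 are among these 8 and among the 4 members above, so the medians of 0.34 and 0.35 are not independent. By limma 0 of the 8 passed, beside 2.53% of all genes with arrays as separate replicates. In that fit 1 gene (12.5%) was at an unadjusted p under 0.05, where 23.9% of all genes were under it. That gene was MSC3, which encodes a protein of the cell periphery, at 0.75 on array 1 and 1.16 on array 2 (adjusted p = 0.112 by limma). It was named after its values were seen.

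Flavodoxin-like proteins are also found at eisosomes, and their genes PST2, RFS1 and YCP4 all had 3 values. PST2 had 0.43, 0.51 and 0.21 on arrays 1, 2 and 4, with a mean of 0.38 ± 0.16 (SD, n = 3 arrays). RFS1 had -0.97, -0.14 and 0.66, and YCP4 had -0.37, 0.11 and 1.03. PST2 thus kept one sign, while RFS1 and YCP4 changed sign between arrays and were highest on array 4, as LSP1 was. Their limma adjusted p over both pairings was 0.642 for PST2, 0.993 for RFS1 and 0.642 for YCP4. Array 4 had the largest spread of ratios over all genes (SD 0.95, against 0.55 and 0.73 on arrays 1 and 2), and its part in these high values was not tested.

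Permeases that gather in the compartment were covered for 2 of 5 genes, on arrays 1 and 2. The arginine permease gene CAN1 averaged -0.40 ± 0.044 and the methionine permease gene MUP1 0.46 ± 0.24 (SD, n = 2 arrays each). Neither passed (limma adjusted p = 0.322 and 0.275 with arrays as separate replicates), and FUR4, TAT2 and LYP1 had no value. Outside the compartment, the proton pump gene PMA1 had 0.32 on array 1 and -0.37 on array 2, and the other 5 listed plasma membrane genes had no value.

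Genes of TORC2, to which eisosomes are known to signal, and of related kinases lay on both sides of 0. Of 11 genes of TORC2, the Ypk kinases and the kinases Fpk1 and Kin82, 4 had 2 values and none was on array 4. The median of these 4 was 0.0051. TSC11, a TORC2 subunit gene, was negative on both arrays, and TOR2, AVO1 and YPK1 had one value of each sign. YPK1, the gene of the main kinase downstream of TORC2, had 0.84 on array 1 and -0.01 on array 2. TOR2, the catalytic subunit gene, had -0.41 and 0.38, and KIN82 had a value on array 1 alone, of -0.48. SLM1, the gene of an adaptor that carries membrane stress to TORC2, belonged to the eisosome list and had 0.77 and 0.21. By limma with arrays as separate replicates 0 of these 4 kinase genes passed, and 0 were at an unadjusted p under 0.05. Over all 1899 genes the shares were 2.53% and 23.9%, so 0 of 4 is no result about these genes. Of 8 phosphoinositide kinase and phosphatase genes, 1 had a value, SFK1, at -0.18 on array 1.

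Sphingolipids are known to control assembly of the coat through Nce102 and the Pkh kinases, and genes of their metabolism were better covered. Of 29 genes, 23 had a value and 19 had 2 or 3. The list goes beyond synthesis: it also holds genes of regulation, export and breakdown, among them ORM1, ORM2, RSB1, DPL1, YPC1, YDC1 and ISC1. Of the 19, 11 were negative throughout, 4 were positive throughout and 4 were mixed, with a median of -0.37. The share negative throughout was 57.9%, beside 45.9% of all genes, and after centring it was 52.6% beside 34.7%. The sets differ in their arrays here too: 2 of the 19 had all 3 values, against 585 of the 1899 genes. The shares were not compared on equal arrays. By limma 0 of 19 passed, beside 2.53% of all genes with arrays as separate replicates. With arrays as separate replicates 5 (26.3%) had an unadjusted p under 0.05, a share near the 23.9% of all genes, of which 300 of 453 were negative, so the count is no result about the list. Those 5 were all negative and were named after their values were seen: the hydroxylase genes SUR2 (-0.90 ± 0.087) and SCS7 (-0.89 ± 0.36), the phosphatase gene LCB3 (-0.81 ± 0.019), and the fatty acid elongation genes ELO2 (-0.78 ± 0.034) and TSC13 (-0.60 ± 0.020; SD, n = 2 arrays each). All rest on arrays 1 and 2, which may share a culture, and their lowest limma adjusted p was 0.113. The 2 genes with 3 values were IPT1, of the last step to the major sphingolipid, at 0.20, 0.47 and 0.27, and PHS1, of fatty acid elongation, at -0.90, -0.38 and 0.091 on arrays 1, 2 and 4. Neither passed over both pairings (limma adjusted p = 0.661 and 0.750). The genes with a value on 1 array alone have no replicate. They were IFA38 (-2.30, array 4), LCB4 (-1.76, array 2), ORM1 (-0.23, array 1) and LCB5 (0.43, array 1).

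**Figure D3:**
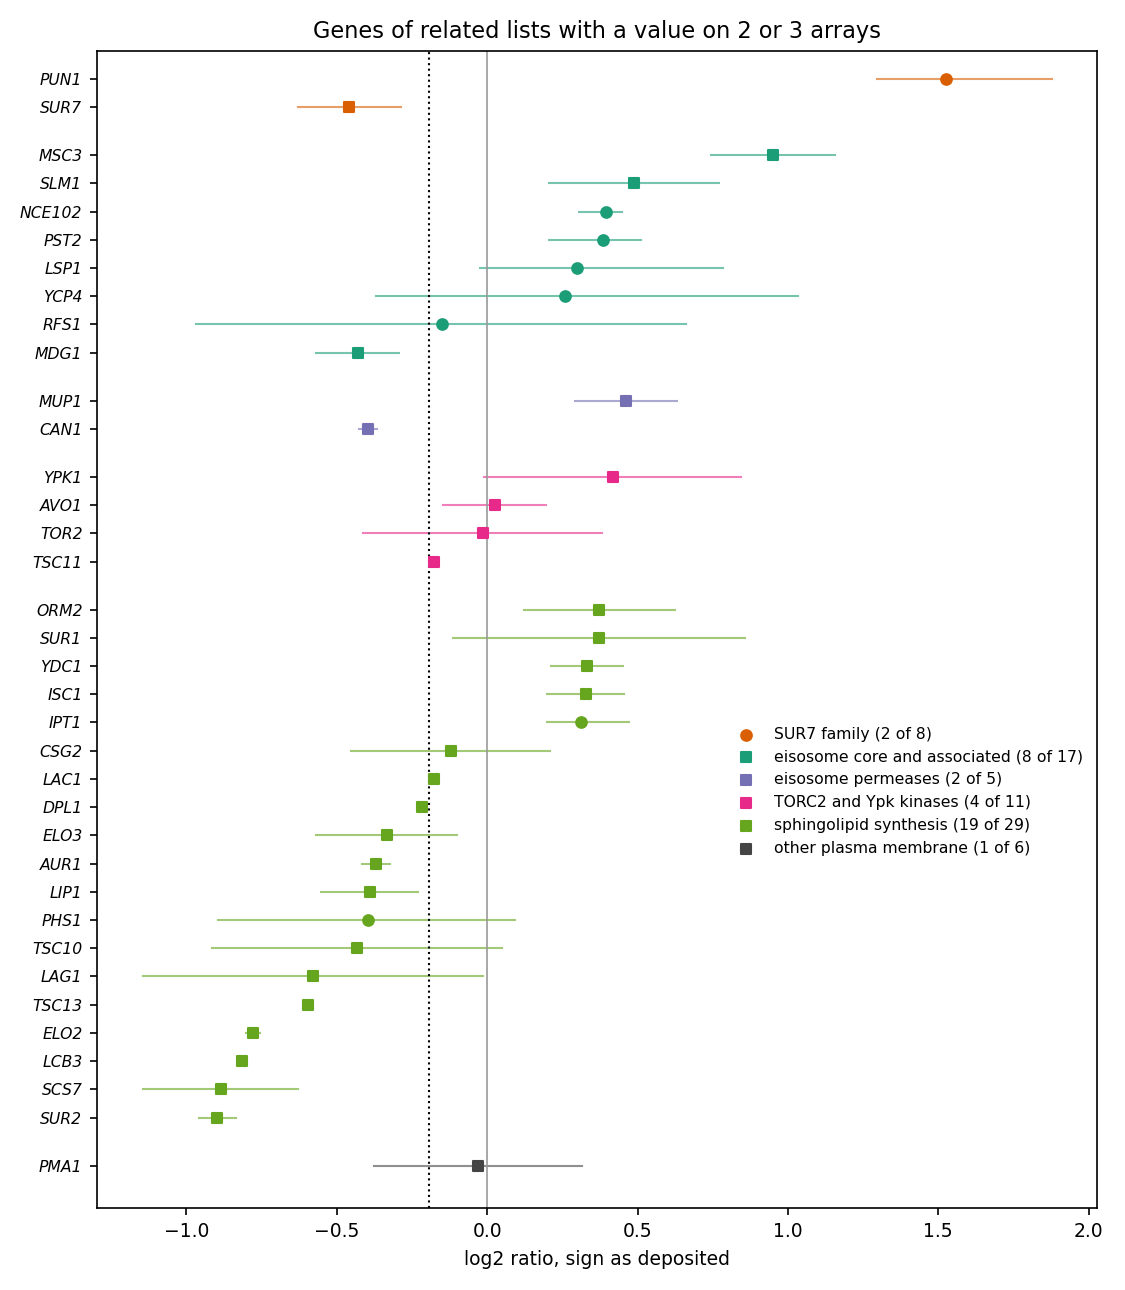
Mean log2 ratio (horizontal axis, sign as deposited) of each gene with 3 values (circles) or 2 values (squares), with a line from its lowest to its highest array, coloured by list, for the eisosome, kinase, sphingolipid and plasma membrane lists (mating-type markers are not drawn). The dotted line marks the median of all genes with 2 or 3 values (-0.19). Of the genes drawn, PUN1 is the highest and SUR2 the lowest, with a mean of -0.90.

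Genes that resembled each fully measured member were found by the Euclidean distance of their 3 log2 ratios among the other 584 shared genes. The 5 nearest to PUN1 were TFS1, GTT1, SED1, YOL150C and NCW2, at distances of 0.55, 0.66, 0.76, 0.80 and 0.84. No gene lay within 0.5 of PUN1, where the median gene was 2.81 away. SED1 and NCW2 encode cell wall proteins, TFS1 an inhibitor of a vacuolar protease and GTT1 a glutathione transferase. The nearest gene to NCE102 was PSK1, which encodes a PAS-domain kinase, at 0.087, followed by GSR1, YNL150W, GPP2 and KGD2 at 0.088 to 0.16. LSP1 was nearest to ENT1, the gene of an endocytic adaptor, at 0.15, followed by UBC13, UBP10, YCL019W and PRE4 at 0.23 to 0.25. NCE102 and LSP1 had 59 and 52 genes within 0.5, so their patterns were common ones.

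**Figure D4:**
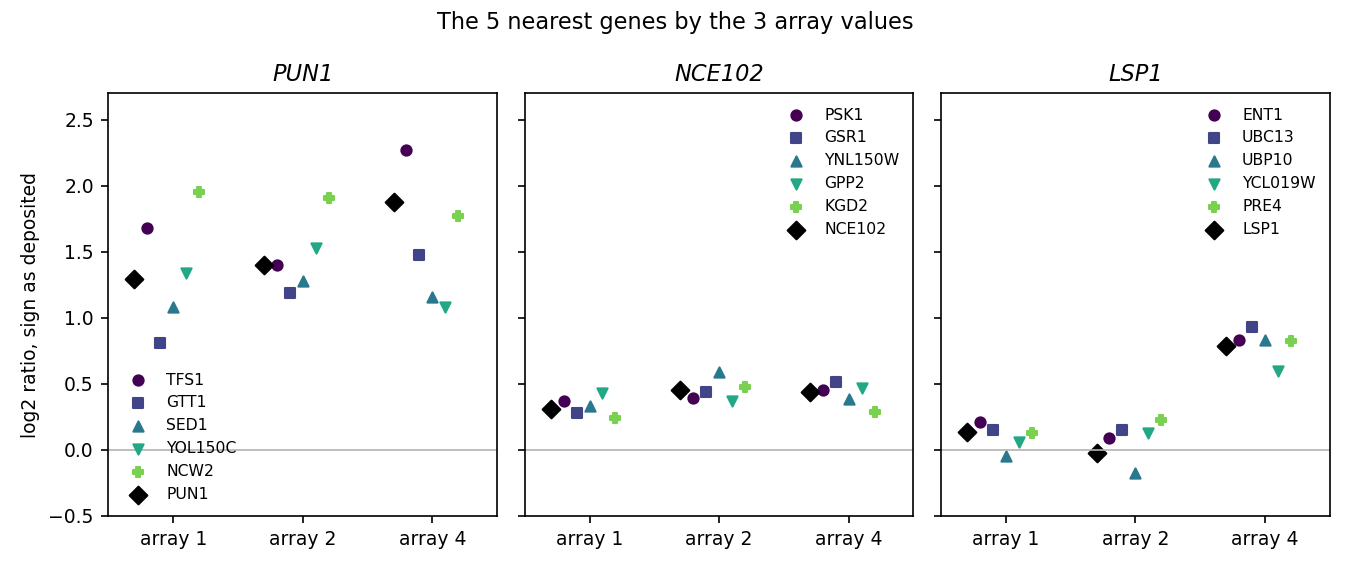
Log2 ratio (vertical axis, sign as deposited) on arrays 1, 2 and 4 of PUN1, NCE102 and LSP1 (black diamonds) and of the 5 genes nearest to each (other symbols). The genes near PUN1 span 0.81 to 2.27, those near NCE102 stay between 0.24 and 0.59, and those near LSP1 are at 0.22 or below on arrays 1 and 2 and at 0.60 to 0.93 on array 4.

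In the RefSeq annotation of assembly R64 no annotated gene overlaps any of the 8. Of their 16 immediate neighbours, 10 had no value and 3 had 2. INA1, next to PUN1, had -0.75 on array 1 and -0.90 on array 2, on the side opposite to PUN1. GAL80, next to SUR7, had -0.41 and -0.17, on the same side as SUR7. HBT1, next to the unmeasured FMP45, had 1.10 and 0.61. As a check on the labelled strain, known as a MATa strain, 3 of 5 MATa marker genes had a value and 0 of 4 MAT alpha markers did, although a ratio gives no level and 56.3% of all genes lacked one. STE2, the pheromone receptor gene of MATa cells, had -0.88, -1.32 and -0.18 on arrays 1, 2 and 4 (limma adjusted p = 0.512 over both pairings). The other measured MATa markers were negative too. BAR1 had -0.96 and -1.51 on arrays 1 and 2 (limma adjusted p = 0.064 with arrays as separate replicates), and MFA2 had -1.23 on array 2 alone.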

How the data were processed

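The authors deposited 1 table of log2 ratios for 3 two-colour arrays, with 6209 rows. Per the labels' protocols, RNA was reverse transcribed with Cy3 or Cy5 nucleotides. For the scanner, background correction, normalization, spot filter and ratio direction, the sources used here give nothing. No spot intensities were used, and the number of arrays limits the precision. Of the rows, 5654 were matched by locus tag and 57 by synonym to RefSeq genes (assembly R64), while 498 stayed under their deposited name. Averaging rows per gene left 6174 genes. Each member rested on 1 row.

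Ratios were tested against 0 with limma 3.58.1 (R 4.3.3, lmFit and eBayes, 1 residual degree of freedom plus a prior of 4.96 or 2.70), over 585 genes with 3 values, with array 1 averaged with array 2 or with array 4, the larger p kept and adjusted by Benjamini-Hochberg (threshold 0.05). A second fit took arrays as separate replicates over 1899 genes with at least 2 values. The code was tested on simulated data. Errors are SDs over arrays, which mix technical and biological spread. The members and lists were chosen with earlier results of these data known. Named genes were all 8 members, list genes with 3 values, list genes at least 2-fold on 2 or more arrays, and the 5 nearest genes. Other list genes were named after their values were seen. Sequences were not used here.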

Additional observations from a re-analysis of the deposited data

How the results depend on the processing

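A t-test without moderation, with the 3 arrays as separate replicates, called 0 genes. By limma the number of genes called was 0 under each pairing alone, centring, robust moderation and turning the sign of array 1. It was 2 with 3 separate replicates, 2 with an added dye term, 3 after scaling the arrays to one spread and 48 with genes on at least 2 arrays; leaving out 1 array gave 0 to 209, where the genes tested also changed (590, 616 and 1863 genes without arrays 1, 2 and 4). Over the same 585 genes it was 17, 0 and 38. The count of 48 became 126 after scaling, and 0 to 209 with 1 array left out, while it was 44 after centring and 44 with robust moderation. Of the members, 2 (PUN1 and PIL1) passed a fold of 1.5 on all arrays that measured them, which for PIL1 was array 4 alone. At 3-fold 0 passed, and 0 passed 2-fold with the sign of array 1 turned. The shares of all genes under these settings were not counted, so these counts are descriptions. PUN1 kept its sign in all 13 alternatives for its mean, from 0.66 to 1.64, although several of these repeat the same mean. It has one sign on every array, so leaving arrays out could not turn it, and it was called in 5 of 17 fits, with adjusted p from 0.00091 to 0.928. NCE102 ranged from 0.19 to 0.46 and LSP1 from 0.056 to 0.46, called in 0 of 17 fits each. Turning the sign of array 1 brought SUR7 to 0.17, SEG1 to -0.48 and EIS1 to 0.57, by construction. The fits of the larger set under centring, scaling and robust moderation, the medians of lists and the fits over the same 585 genes were chosen after seeing the data. Each ratio already pairs treated with untreated RNA of one divided culture, and with 1 group no further replicate block was fitted.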
